A study of Homo sapiens with 6 samples.

Results

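The genes described here are the components of WNT signaling, chosen by their symbols. They are the WNT ligands, the frizzled receptors (FZD), the dickkopf (DKK) and secreted frizzled-related (SFRP) proteins, the dishevelled proteins (DVL), TCF7L1 and TCF7L2, the LGR receptors, and single genes such as CTNNB1, APC, AXIN2 and RNF43. The rule found 62 of the 19977 gene symbols in the table. It does not take TCF7 itself, which was at most 0.191 TPM in any library. RNA had been measured in U2OS cells, a human osteosarcoma line grown with fetal bovine serum. Cells of one group received an siRNA against NUDT5 (siNUDT5) and cells of the other a non-targeting control siRNA (siCtrl), with 3 libraries each. Both groups were otherwise untreated and were harvested 48 hours after transfection. NUDT5 encodes an enzyme of the NUDIX family that splits ADP-ribose. The comparison asks how lowering it changes gene expression. Whether each library had its own culture is not said in the labels, so the p-values weigh only the differences among these libraries, and those could be technical.

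In canonical WNT signaling a secreted, lipid-modified WNT protein binds a frizzled receptor together with LRP5 or LRP6. Dishevelled is recruited, the complex of AXIN, APC and kinases that marks beta-catenin for destruction is held back, and beta-catenin (CTNNB1) acts in the nucleus through TCF and LEF factors. Cells with an active pathway transcribe inhibitors of that same pathway, among them AXIN2, NKD1, RNF43 and ZNRF3. Other WNT proteins signal without beta-catenin through receptors such as ROR1, ROR2 and RYK. The pathway is known for its part in bone formation by osteoblasts, the cell type that osteosarcoma resembles.

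Levels are given in TPM, an abundance that allows for transcript length and library total and so lets genes be compared with each other. NUDT5 stood at 3.04, 2.74 and 2.67 TPM in siNUDT5 1 to 3, against 46.2, 49.0 and 52.0 TPM in siCtrl 1 to 3 (exact two-sided permutation p = 0.1, the smallest that 3 against 3 allow). Its log2 change was -3.71 (limma adjusted p = 1.32e-06). Depth relative to siCtrl 1, estimated from low TPM values, was 89.4% to 118% in siNUDT5, against 64.1% in siCtrl 2 and 112% in siCtrl 3. siCtrl 2 differed from the other siCtrl libraries by a median of 0.227 and 0.296 on the log2(TPM + 1) scale, where the other pairs within a group differed by at most 0.134. It was the siCtrl library farthest from its group mean in 24 of the 41 members tested, a count not made for other genes. Of 12 osteoblast and mesenchymal markers 7 were tested, and 1 rose and 1 fell (14.3% each, against 10.9% and 5.2% of all tested genes). SPP1 fell, to 10.1, 9.73 and 10.3 TPM in siNUDT5, against 17.1, 20.3 and 22.0 TPM in siCtrl. Its log2 change was -0.90 (adjusted p = 0.00208). ALPL rose, and its call (adjusted p = 0.0472) was lost with no filter on low values (0.0833) and with either scaling (0.0743 and 0.0846). A block for the replicate number (0.132) lost it too, as did leaving out siNUDT5 1, 2 or 3 or siCtrl 3 (0.0781 to 0.176). The osteoblast transcription factor gene SP7 was listed at 0, and COL1A2, BGLAP, IBSP and TWIST1 were too low to be tested. RUNX2 stood at 11.0 to 13.4 TPM in siNUDT5 and at 7.58 to 10.8 TPM in siCtrl. It did not pass (log2 change 0.44, adjusted p = 0.0752), nor did COL1A1, VIM, CDH2 and SPARC. Of the blood markers, CD3E and HBB were listed at 0, and CD68, a lysosomal protein gene and the 1 that was tested, rose, to 14.6, 14.9 and 15.4 TPM in siNUDT5, against 7.79, 5.30 and 7.90 TPM in siCtrl. Of 6 epithelial markers EPCAM fell, to 5.10, 5.38 and 5.70 TPM in siNUDT5, against 7.18, 12.8 and 9.68 TPM in siCtrl (adjusted p = 0.0271), a call lost with no filter on low values (0.0556) and without siNUDT5 1, 2 or 3 or siCtrl 3 (0.0860 to 0.0958). None of the 4 endothelial markers in the table reached the mean of 1 TPM needed for testing. The part of these marker differences in the results below was not tested, and in bulk RNA a change in the number of cells of a type and a change in RNA per cell cannot be told apart.

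Genes of WNT signaling that passed the test were all higher after NUDT5 depletion. Of the 62 genes, 6 were listed at 0 in every library, 41 had a mean of at least 1 TPM and were tested, and 11 of these 41 (26.8%) rose, against 10.9% of all 12236 tested genes. None fell, against 5.2% of all tested genes, and 30 did not pass. The members were chosen with earlier results of these data known, so these shares are counts and no test of the set. At an unadjusted p under 0.05, 18 (43.9%) were higher and 3 (7.32%) lower, against 20.5% and 10.5% of all tested genes. The 11 were the ligand gene WNT3A, the receptor genes FZD2, FZD4, FZD7 and ROR1, DVL1, the secreted modulators SFRP1 and DKK3, and the inhibitors NKD1, AXIN2 and RNF43. The test was limma on log2(TPM + 1), siNUDT5 minus siCtrl, with Benjamini-Hochberg adjustment over all tested genes and a threshold of 0.05. The median log2 change of the 41 was 0.23, beside 0.05 over all tested genes. Over all tested genes, 1334 rose and 636 fell, and with median-ratio scaling 1034 rose and 904 fell, while the same 11 members rose under it and under quantile normalization. The number of members that rose was 6, 8 and 6 without siNUDT5 1, 2 and 3, and 12, 16 and 6 without siCtrl 1, 2 and 3, where 4.38%, 4.25%, 4.50%, 10.9%, 21.9% and 4.84% of all genes rose in the same order.

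**Figure D1:**
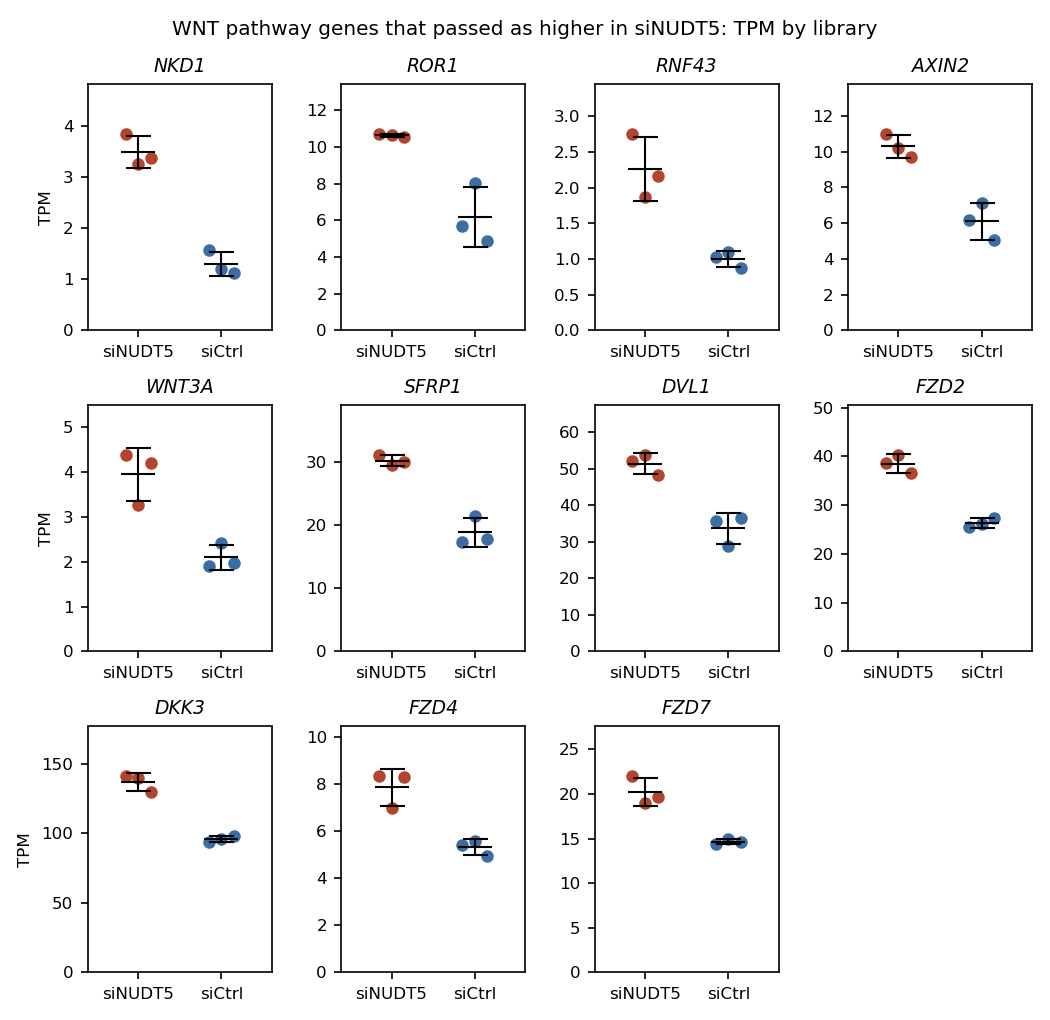
TPM of the 11 WNT pathway genes that passed as higher in siNUDT5, by library, with siNUDT5 left and siCtrl right in each panel. Points are libraries 1 to 3 from left to right, lines and bars give mean and SD, axes start at 0, and in every panel the lowest siNUDT5 library lies above the highest siCtrl library.

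**Figure D2:**
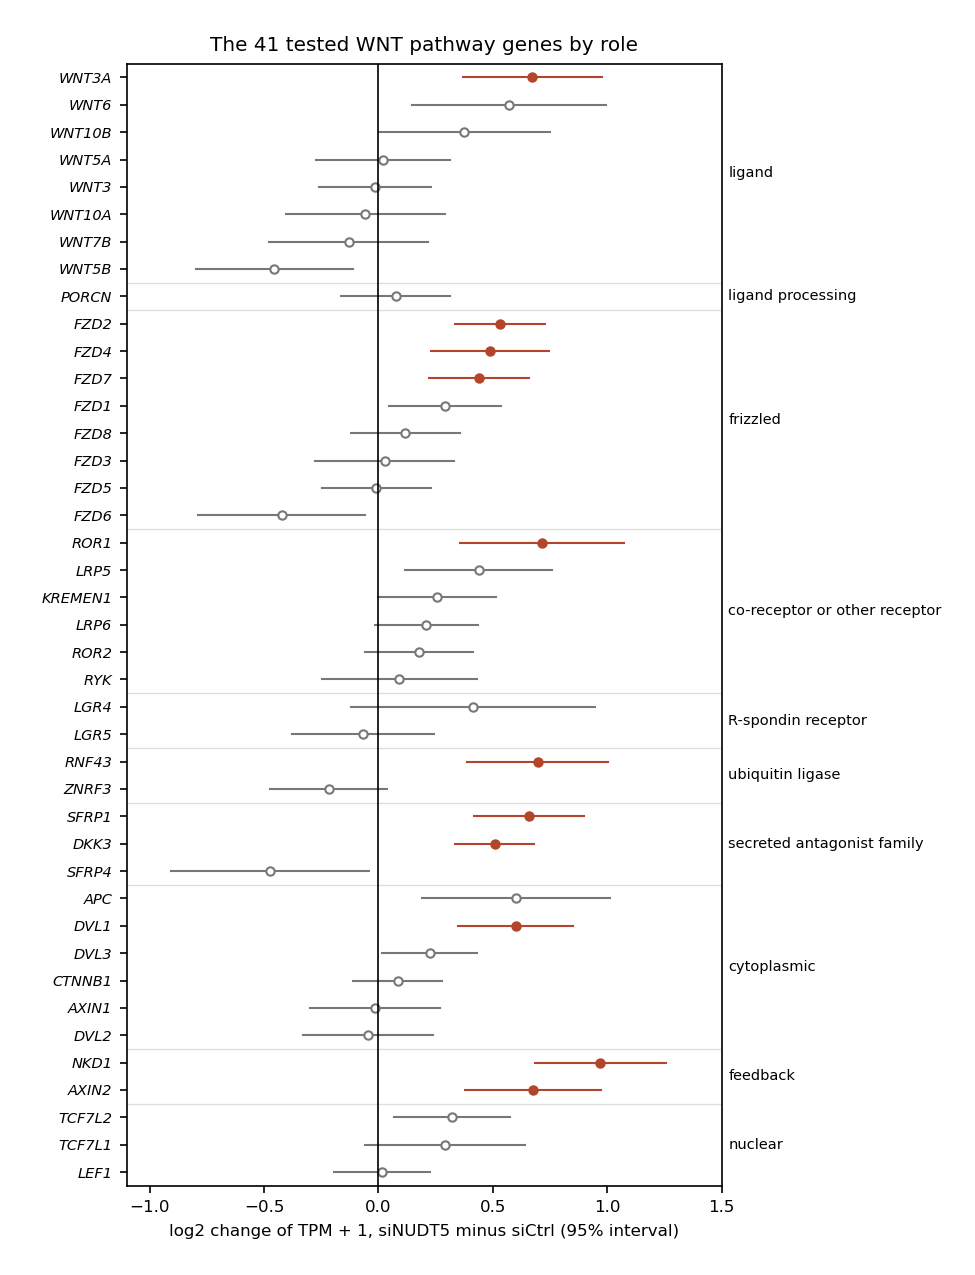
Log2 change of TPM + 1, siNUDT5 minus siCtrl, with its 95% interval from limma, for the 41 tested genes by role. Filled points passed an adjusted p of 0.05, open points did not, and all 11 filled points lie right of 0.

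Inhibitors that the pathway itself induces were among the largest rises on the log2(TPM + 1) scale. NKD1, which encodes a dishevelled-binding inhibitor, stood at 3.84, 3.26 and 3.38 TPM in siNUDT5 1 to 3, against 1.57, 1.20 and 1.12 TPM in siCtrl 1 to 3. The groups were well apart, and its log2 change of 0.97 (SE 0.12, adjusted p = 0.00225) was the largest among the tested members. That rank depends on the 1 TPM added before the log. With 5 TPM added the change was 0.43, below the 0.57 of SFRP1. AXIN2, the inducible scaffold of the destruction complex, stood at 11.0, 10.2 and 9.71 TPM in siNUDT5, against 6.16, 7.13 and 5.06 TPM in siCtrl, a log2 change of 0.68 (SE 0.13, adjusted p = 0.0110). RNF43, a membrane ubiquitin ligase that removes frizzled receptors from the cell surface, stood at 2.75, 1.86 and 2.16 TPM in siNUDT5, against 1.02, 1.10 and 0.877 TPM in siCtrl. It was higher in all 3 siNUDT5 libraries, with a log2 change of 0.70 (SE 0.14, adjusted p = 0.0117). NKD1 passed whichever library was left out. AXIN2 missed the threshold without siNUDT5 1 (adjusted p = 0.0547), and RNF43 without siNUDT5 3 (0.0502) or siCtrl 3 (0.0527), with log2 changes of 0.63, 0.71 and 0.65.

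Not every gene of this class was higher. ZNRF3, the close relative of RNF43, stood at 10.1, 11.9 and 9.53 TPM in siNUDT5, against 12.3, 11.7 and 13.0 TPM in siCtrl, so the groups overlapped. Its log2 change was -0.22 (95% interval -0.47 to 0.04, adjusted p = 0.223). LEF1, a nuclear partner of beta-catenin and itself a known target, stood at 15.2, 15.0 and 14.9 TPM in siNUDT5, against 14.0, 15.8 and 14.7 TPM in siCtrl, and the siNUDT5 values lay within the siCtrl range. Its log2 change of 0.015 (95% interval -0.20 to 0.23) turned to -0.039 with median-ratio scaling and to -0.023 without siCtrl 1. LGR5, a target and R-spondin receptor gene, overlapped between groups at 0.838 to 1.09 TPM in siNUDT5 and 0.897 to 1.40 TPM in siCtrl. NKD2, the relative of NKD1, stayed under 0.4 TPM in every library. DKK1, a secreted inhibitor that is another known target, was listed at 0, 0.0749 and 0.336 TPM in siNUDT5 1 to 3, against 0, 0.138 and 0.316 TPM in siCtrl 1 to 3. The smallest whole numbers of reads in the ratio of these values were 0, 1 and 4 in siNUDT5 and 0, 1 and 4 in siCtrl. A difference was not detectable at this depth.

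Promoters of 3 such targets are shown because their levels went different ways: RNF43 rose, LEF1 did not pass and DKK1 was near 0. Each line gives the 250 bases before the gene's start in RefSeq (GRCh38.p14), written along the gene. Capitals mark the core word of a TCF/LEF element, searched on both strands as CTTTGAA or CTTTGAT and as CTTTGTA or CTTTGTT. RNF43 has a second annotated start, not shown, which also lacks the words.
RNF43: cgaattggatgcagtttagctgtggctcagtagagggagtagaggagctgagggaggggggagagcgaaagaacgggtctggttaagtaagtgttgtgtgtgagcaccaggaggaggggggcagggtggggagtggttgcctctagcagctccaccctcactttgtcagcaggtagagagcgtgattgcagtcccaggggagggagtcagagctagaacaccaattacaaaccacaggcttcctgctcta
LEF1: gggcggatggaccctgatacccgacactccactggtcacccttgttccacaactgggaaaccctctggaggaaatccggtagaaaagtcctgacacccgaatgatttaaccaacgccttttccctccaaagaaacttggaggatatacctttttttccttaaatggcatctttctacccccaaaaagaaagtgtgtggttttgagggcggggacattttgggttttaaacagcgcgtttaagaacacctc
DKK1: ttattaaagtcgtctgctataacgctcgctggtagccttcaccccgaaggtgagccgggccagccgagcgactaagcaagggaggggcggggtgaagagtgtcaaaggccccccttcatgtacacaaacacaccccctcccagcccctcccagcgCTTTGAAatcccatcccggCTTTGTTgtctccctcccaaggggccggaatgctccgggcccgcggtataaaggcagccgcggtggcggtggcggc
The windows lie at chr17:58417535-58417784, minus strand for RNF43, chr4:108166302-108166551, minus strand for LEF1 and chr10:52314031-52314280, plus strand for DKK1. DKK1 held CTTTGAA starting 95 bases and CTTTGTT starting 76 bases before its start, and the RNF43 and LEF1 windows held none of the words. A promoter was found for 44 of the 62 genes, and 2 of them (4.55%), DKK1 and TCF7L2, held a word, against 14.3% of 27305 genes. Those 27305 are all genes with a RefSeq promoter and were not limited to the genes measured here. None of the 5 genes among the 11 with a promoter in the table held one. A match is only these letters, and their absence from this window says nothing of elements elsewhere.

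Among the ligands WNT3A rose. WNT3A, which encodes a WNT protein used to activate beta-catenin, stood at 4.38, 3.27 and 4.20 TPM in siNUDT5 1 to 3, against 1.91, 2.41 and 1.98 TPM in siCtrl 1 to 3. Its log2 change was 0.67 (SE 0.13, adjusted p = 0.0126), and it missed the threshold without siNUDT5 1 (adjusted p = 0.0586), siNUDT5 3 (0.0656) or siCtrl 3 (0.0561). The other 7 tested ligands did not pass, so 12.5% of the 8 rose, near the 10.9% of all tested genes. WNT5A, a ligand best known for signaling without beta-catenin, had the highest mean level of the ligands, at 12.9, 10.4 and 12.3 TPM in siNUDT5, against 10.5, 13.6 and 11.0 TPM in siCtrl. Its groups overlapped, and its log2 change of 0.020 (95% interval -0.27 to 0.31) turned to -0.032 with median-ratio scaling and to -0.047 without siCtrl 1. WNT10B, a ligand known for favouring bone over fat, stood at 9.78 to 10.4 TPM in siNUDT5, against 6.15 to 10.2 TPM in siCtrl, and passed only without siCtrl 1 (log2 change 0.56, adjusted p = 0.0151). WNT3 had a log2 change of -0.015, WNT7B of -0.13 and WNT10A of -0.057.

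WNT6 and WNT5B had groups that did not overlap, in opposite directions, and neither passed. WNT6 stood at 1.67, 2.61 and 1.69 TPM in siNUDT5, against 1.31, 0.584 and 1.17 TPM in siCtrl (log2 change 0.57, adjusted p = 0.0724). WNT5B, the paralog of WNT5A, stood at 1.42, 1.15 and 1.63 TPM in siNUDT5, against 2.80, 2.33 and 1.78 TPM in siCtrl (log2 change -0.45, adjusted p = 0.0751). Among all tested genes 24.3% had every siNUDT5 library above every siCtrl library and 12.9% the reverse, and among the 41 members 20 and 3 did.

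WNT11, chosen after its values were seen, had too low a mean to be tested (0.781 TPM). WNT11 encodes a ligand known for signaling without beta-catenin. Its level was 1.36, 1.61 and 1.03 TPM in siNUDT5 1 to 3, against 0.0677, 0.317 and 0.303 TPM in siCtrl 1 to 3, and the lowest siNUDT5 library lay more than 3 times above the highest siCtrl library. The smallest whole numbers of reads in the ratio of these values were 18, 28 and 16 in siNUDT5, against 1, 3 and 5 in siCtrl. With no filter on low values its log2 change was 0.92 (SE 0.12, adjusted p = 0.00683), and it was the 1 member that passed in that fit beyond the 11. The other 10 untested ligands had overlapping groups. WNT7A and WNT9A lay between 0.458 and 1.26 TPM, and WNT2B and WNT4 between 0.0291 and 0.399 TPM. WNT8B was at most 0.0735 TPM and WNT1 at most 0.135 TPM in any library, and WNT2, WNT8A, WNT9B and WNT16 were listed at 0 throughout. The summed TPM of the 19 ligands was 41.0, 40.1 and 40.9 in siNUDT5, against 37.5, 33.8 and 32.7 in siCtrl. PORCN, which encodes the enzyme that attaches the lipid to WNT proteins, stood at 19.1, 21.7 and 18.5 TPM in siNUDT5, against 20.2, 18.3 and 17.4 TPM in siCtrl, with overlapping groups (log2 change 0.077, adjusted p = 0.666).

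**Figure D3:**
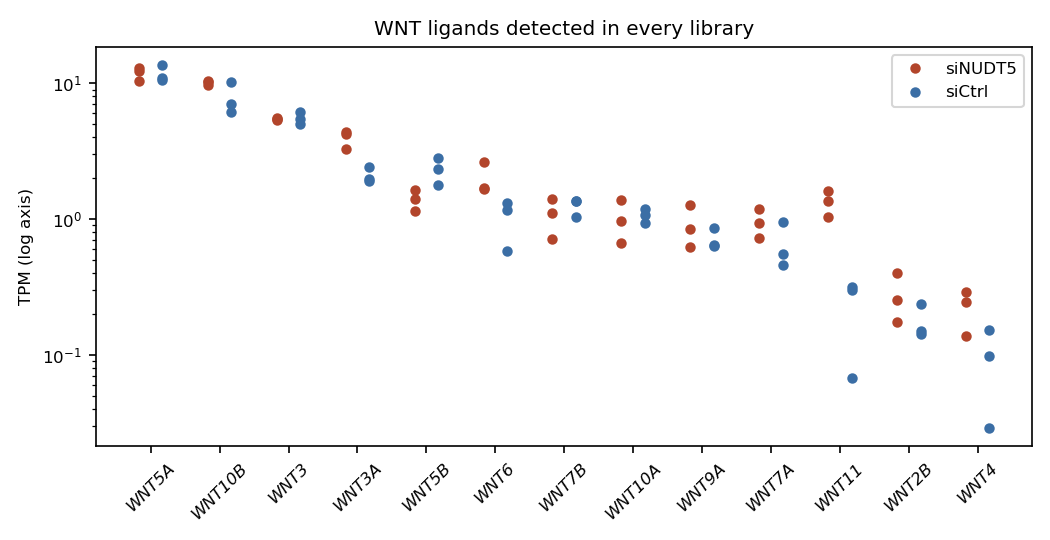
TPM on a log axis of the 13 WNT ligands above 0 in all 6 libraries, in order of mean level, with siNUDT5 points left of siCtrl points for each gene. WNT11 is the ligand with the widest gap between the groups, and WNT5A and WNT3 overlap.

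Among the frizzled receptor genes FZD2, FZD4 and FZD7 rose, while the summed level of the family overlapped between groups. Of 10 frizzled genes 8 were tested and 3 rose (37.5%, against 10.9% of all tested genes). None fell, against 5.2% of all tested genes. FZD2 stood at 38.6, 40.3 and 36.6 TPM in siNUDT5, against 25.5, 26.1 and 27.4 TPM in siCtrl, with a log2 change of 0.53 (SE 0.09, adjusted p = 0.00579). FZD7 stood at 22.0, 19.0 and 19.6 TPM in siNUDT5, against 14.4, 14.9 and 14.6 TPM in siCtrl (log2 change 0.44, SE 0.10, adjusted p = 0.0182). FZD4, which is also the receptor for norrin, stood at 8.36, 6.97 and 8.31 TPM in siNUDT5, against 5.43, 5.60 and 4.94 TPM in siCtrl (log2 change 0.49, SE 0.11, adjusted p = 0.0222). In each the groups were apart. FZD2 passed whichever library was left out. FZD7 missed the threshold without siNUDT5 1, 2 or 3 (adjusted p = 0.0888, 0.0590 and 0.0726) or siCtrl 3 (0.0821), and FZD4 without siNUDT5 1 (0.0943), siNUDT5 3 (0.101) or siCtrl 3 (0.101). FZD1, of the same subfamily as FZD2 and FZD7, stood at 23.4, 21.4 and 20.1 TPM in siNUDT5, against 18.3, 18.6 and 15.6 TPM in siCtrl, and passed only without siCtrl 2 (log2 change 0.34, adjusted p = 0.0230, against 0.29 and 0.103 with all libraries).

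FZD6, the frizzled gene with the highest level, leaned the other way. Its level was 62.8, 53.5 and 56.2 TPM in siNUDT5, against 64.0, 101 and 71.4 TPM in siCtrl, and siCtrl 2 was far above the other libraries. The log2 change was -0.42 (SE 0.16, adjusted p = 0.111), which passed without siCtrl 1 (-0.56, adjusted p = 0.0368) and was -0.23 (adjusted p = 0.0591) without siCtrl 2. FZD6 made up 35.9%, 33.6% and 35.2% of the frizzled TPM in siNUDT5 1 to 3, against 44.4%, 54.3% and 46.9% in siCtrl 1 to 3, so its share was lower in each siNUDT5 library than in any siCtrl library. FZD2 made up 23.4 ± 1.67% in siNUDT5 and 16.6 ± 2.20% in siCtrl (SD, n = 3 each). The summed frizzled level was 175, 159 and 159.5 TPM in siNUDT5, against 144, 186 and 152 TPM in siCtrl. FZD3, FZD5 and FZD8 had log2 changes of 0.028, -0.0086 and 0.12, and FZD9 and FZD10 were too low to be tested.

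**Figure D4:**
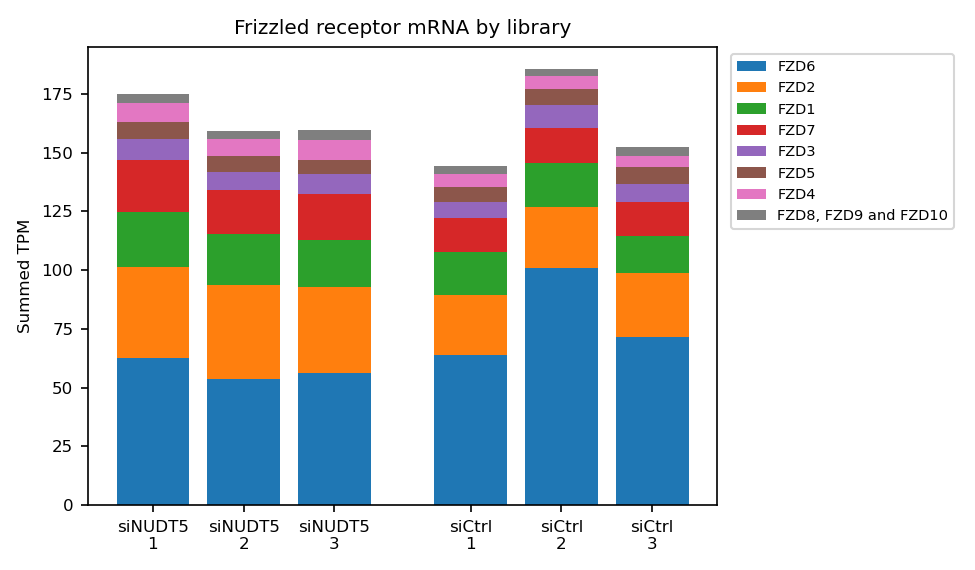
Summed TPM of the 10 frizzled genes in each library, stacked by gene, with siNUDT5 libraries left and siCtrl libraries right. The FZD6 block at the bottom is 53.5 to 62.8 TPM in siNUDT5 and 64.0 to 101 TPM in siCtrl, while the FZD2 block above it is taller in siNUDT5.

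Of the co-receptors and other WNT receptors ROR1 rose. ROR1, a receptor tyrosine kinase-like protein that binds WNT5A, stood at 10.7, 10.7 and 10.5 TPM in siNUDT5, against 5.69, 8.03 and 4.87 TPM in siCtrl. The log2 change was 0.72 (SE 0.16, adjusted p = 0.0187), and the siNUDT5 libraries lay close together. It missed the threshold without siNUDT5 1, 2 or 3 (adjusted p = 0.0701, 0.0703 and 0.0759) or siCtrl 3 (0.0695). Without siCtrl 2 it was 0.89 (adjusted p = 6.04e-05). LRP5, a co-receptor known for setting bone mass, stood at 9.13, 9.29 and 7.19 TPM in siNUDT5, against 6.33, 5.02 and 6.74 TPM in siCtrl, and did not pass (log2 change 0.44, adjusted p = 0.0681). Its partner LRP6 passed only without siCtrl 2 (log2 change 0.29, adjusted p = 0.0161, against 0.21 and 0.190 with all libraries). KREMEN1, a receptor for dickkopf proteins, and ROR2 had groups that did not overlap, with log2 changes of 0.26 and 0.18 that did not pass (adjusted p = 0.165 and 0.284). RYK had the highest level of these receptors, at 116, 102 and 107 TPM in siNUDT5, against 82.4, 128 and 100.4 TPM in siCtrl, and overlapped (log2 change 0.091, adjusted p = 0.723, and -0.060 without siCtrl 1).

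R-spondin receptors did not pass. LGR4, which with R-spondins keeps RNF43 and ZNRF3 from removing frizzled receptors, stood at 12.6, 8.77 and 11.4 TPM in siNUDT5, against 5.97, 12.0 and 6.73 TPM in siCtrl. The overlap came from siCtrl 2, and the log2 change was 0.41 (adjusted p = 0.267) with all libraries. Without siCtrl 2 it was 0.69 (adjusted p = 0.00225), in a fit where 21.9% of all genes rose. It was 0.24 (adjusted p = 0.491) without siCtrl 1 and 0.31 (adjusted p = 0.522) without siCtrl 3. LGR6 lay under 0.7 TPM in every library.

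SFRP1 and DKK3 rose and made up nearly all of the RNA of their families. SFRP1, a secreted protein that binds WNT ligands, stood at 31.2, 29.6 and 30.0 TPM in siNUDT5, against 17.3, 21.6 and 17.8 TPM in siCtrl, with a log2 change of 0.66 (SE 0.11, adjusted p = 0.00556). DKK3, a divergent dickkopf relative that does not act on LRP6 as DKK1 does, stood at 141, 139.8 and 129.5 TPM in siNUDT5, against 93.9, 95.9 and 97.8 TPM in siCtrl. The groups lay far apart beside the spread within each, and the log2 change was 0.51 (SE 0.08, adjusted p = 0.00403). Both passed under every alternative tried. SFRP1 made up 97.4 ± 0.259% of the summed SFRP TPM in siNUDT5 and 92.5 ± 2.09% in siCtrl, and DKK3 made up 99.3 ± 0.220% of the DKK TPM in siNUDT5 and 98.9 ± 0.543% in siCtrl (SD, n = 3 each). SFRP4 stood at 0.827, 0.884 and 0.660 TPM in siNUDT5, against 1.35, 2.31 and 0.971 TPM in siCtrl, a log2 change of -0.47 that did not pass (adjusted p = 0.129). DKK2 and DKKL1 were too low to be tested, SFRP2 was at most 0.0728 TPM in any library, and SFRP5 and DKK4 were listed at 0 throughout.

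In the cytoplasm DVL1 rose and beta-catenin mRNA did not pass. DVL1, one of the 3 dishevelled genes, stood at 52.0, 53.8 and 48.3 TPM in siNUDT5, against 35.7, 28.8 and 36.5 TPM in siCtrl. Its log2 change was 0.60 (SE 0.11, adjusted p = 0.00924), and it missed the threshold without siNUDT5 2 (adjusted p = 0.0514). DVL1 made up 43.3 ± 1.05% of the dishevelled TPM in siNUDT5 and 35.1 ± 0.610% in siCtrl, and DVL2 20.6 ± 1.06% in siNUDT5 and 26.5 ± 1.30% in siCtrl (SD, n = 3 each). DVL3 and DVL2 had log2 changes of 0.23 and -0.045 that did not pass. CTNNB1 was the most abundant of all 62 genes, at 219, 207 and 211 TPM in siNUDT5, against 186, 221 and 195 TPM in siCtrl. Its groups overlapped, and the log2 change was 0.084 (95% interval -0.11 to 0.28, adjusted p = 0.551). APC, a tumour suppressor of the destruction complex, stood at 21.2, 16.4 and 17.0 TPM in siNUDT5, against 8.99, 15.2 and 11.3 TPM in siCtrl. Its log2 change of 0.60 just missed the threshold (adjusted p = 0.0561) and was 0.78 (adjusted p = 0.000561) without siCtrl 2. AXIN1, the constitutive scaffold, had a log2 change of -0.015 (95% interval -0.30 to 0.27). In the nucleus TCF7L2, the most abundant TCF gene, stood at 44.3, 36.3 and 39.8 TPM in siNUDT5, against 30.3, 35.7 and 29.7 TPM in siCtrl, and passed only without siCtrl 2 (log2 change 0.40, adjusted p = 0.00561, against 0.32 and 0.0875 with all libraries). TCF7L1 had a log2 change of 0.29 that did not pass (adjusted p = 0.233).

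**Figure D5:**
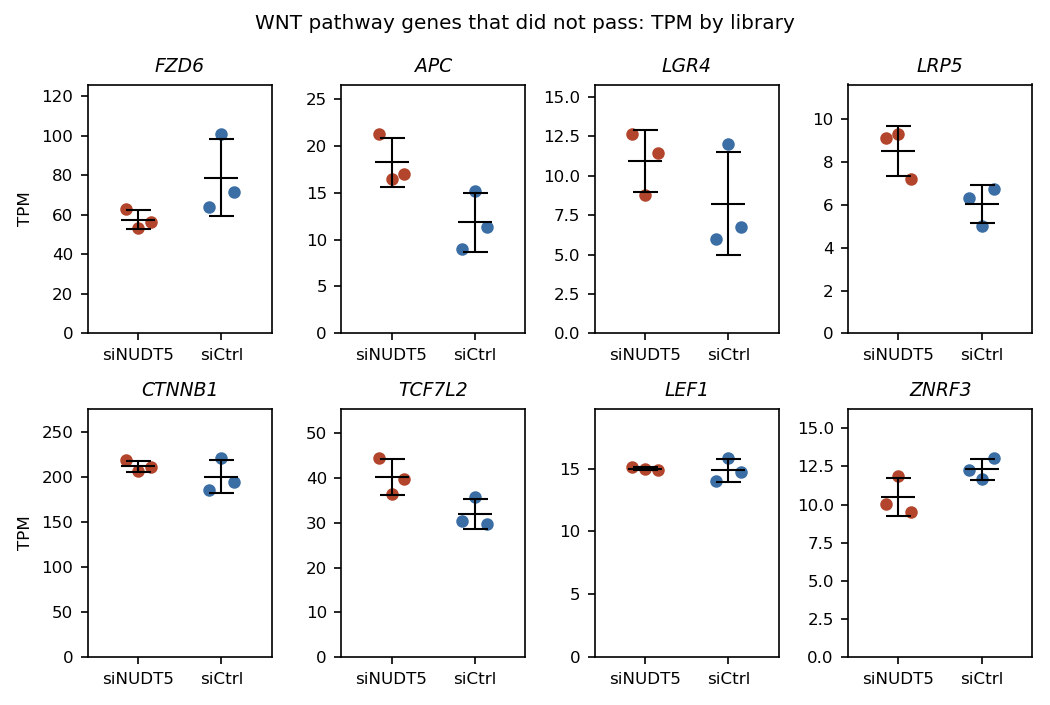
TPM by library of 8 genes that did not pass with all libraries, with siNUDT5 left and siCtrl right in each panel. Points are libraries 1 to 3 from left to right, lines and bars give mean and SD, and siCtrl 2, the middle siCtrl point, is the highest of its group in FZD6, APC, LGR4, CTNNB1, TCF7L2 and LEF1.

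Further genes of the pathway, which are no members by name, were counted from 6 lists. The lists were chosen with earlier results of these data known, so their shares beside those of all genes are no test. Of 85 tested genes 20 rose (23.5%, against 10.9% of all tested genes), 4 fell (4.71%, against 5.2%) and 61 did not pass, so the share that fell was near that of all genes. Their median log2 change was 0.19. Without siNUDT5 1, 2 or 3, 9, 7 and 10 rose and none fell, and without siCtrl 1, 2 and 3, 21, 40 and 7 rose and 4, 5 and none fell, while the share of all genes that rose moved between 4.25% and 21.9% as given above.

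Of 22 tested beta-catenin target genes 8 rose (36.4%, against 10.9% of all tested genes) and 3 fell (13.6%, against 5.2%). This list too was chosen with earlier results known, so its shares describe the genes picked and not beta-catenin targets at large. BMP4, a bone morphogenetic protein, stood at 127 ± 8.63 TPM in siNUDT5 and 69.9 ± 5.62 TPM in siCtrl (SD, n = 3 each). It changed by 0.86 on the log2 scale (adjusted p = 0.00125). The homeobox gene MSX2 (log2 change 0.70) and the T-box gene TBX3 (0.75) rose too. The 3 that fell were MYC, at 149.7 ± 4.89 TPM in siNUDT5 and 191 ± 4.84 TPM in siCtrl (log2 change -0.35, adjusted p = 0.0143), the Notch ligand gene JAG1 (-0.38) and VEGFA (-0.38). Without siNUDT5 1, 2 or 3 or siCtrl 3, 4 rose, BMP4, TBX3, MSX2 and MSX1 each time, and none fell, and without siCtrl 2, 12 rose and 3 fell. With a block for the replicate number 3 rose and none fell.

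In the other lists the shares that rose were 14.3% to 18.8%, and 37.5% for the receptor complex, against 10.9% of all tested genes. With 7 to 18 tested genes in each list, these shares rest on few genes. Among regulators of the destruction complex 2 of 14 rose, PPP2R5A, a phosphatase subunit, at 39.3 ± 4.53 TPM in siNUDT5 and 20.6 ± 3.86 TPM in siCtrl (log2 change 0.91, adjusted p = 0.00517), and the casein kinase gene CSNK1E (0.42). Of 18 nuclear factors 3 rose, the corepressors TLE1 (log2 change 0.64) and TLE3 (0.41) and CTNNBIP1 (0.52), which encodes an inhibitor of the contact between beta-catenin and TCF. Of 8 other receptor-complex genes 3 rose, GPR124 (0.63), which encodes a WNT7 co-receptor, LMBR1L (0.57) and LRP4 (0.50). Of 7 extracellular factors the glypican gene GPC4 rose (0.48). In planar cell polarity, a branch without beta-catenin, 3 of 16 rose, PRICKLE2 (0.66), the GTPase gene RHOA (0.55) and CELSR2 (0.45), and 1 fell, CELSR3 (-0.45). PPP2R5A, TLE1 and RHOA passed whichever library was left out. The other 10 genes named in these lists all missed the threshold without siNUDT5 2 (adjusted p = 0.0503 to 0.126) and without siCtrl 3 (0.0507 to 0.151). Of these, all but CTNNBIP1 and GPR124 also missed it without siNUDT5 1, all but GPR124, LMBR1L and PRICKLE2 without siNUDT5 3, and CELSR3 without siCtrl 1. CSNK1E and TLE3 also missed it with either scaling (0.0663 to 0.0946), and CELSR3 (0.0716) and TLE3 (0.0622) with no filter on low values. With a block for the replicate number CSNK1E, CTNNBIP1, LMBR1L, LRP4, GPC4, CELSR2 and CELSR3 missed it (0.0514 to 0.144), and 1 nuclear factor rose. These lists share 1 set of libraries with the members, so their counts are no independent support.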

How the data were processed

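U2OS cells were harvested 48 hours after they received an siRNA, and their RNA was made into libraries with a strand-specific mRNA kit, per the labels' protocols. Tools in the submitters' processing notes are STAR 2.7.3a and DESeq2 1.22.1, with hg19 as the build and no role given. The authors deposited 1 table of TPM per gene symbol, and each library's values sum to 1000000. The annotation, the counting of reads shared between gene copies and the use of strand were each not given in the sources used.

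The fit was limma 3.58.1 in R 4.3.3 (lmFit, eBayes with a trend) on log2(TPM + 1), siNUDT5 minus siCtrl, two-sided, over every gene averaging 1 TPM or more. P-values were adjusted by Benjamini-Hochberg over all tested genes, and the procedure was tested on simulated data. No column was left unused. The members and gene lists were chosen with earlier results of these data known. Genes given in full are those past the threshold and the highest of each role, plus AXIN2, CTNNB1 and LEF1. From each further pathway list up to 3 genes past the threshold are named, by size of change, and beside them the few that fell, although smaller. Others named were chosen after their values were seen. Depth relative to siCtrl 1 came from the ratios of low values between libraries, of which 72.8% to 81.7% fell, after 1 factor per library, no more than 0.1% from a quotient of integers of at most 5. The factor reflects reads summed per transcript length, so it equals the ratio of read totals only where libraries share a mix of transcript lengths. Read numbers of low genes are the smallest whole numbers that stand in the ratio of their values, with a tolerance of 0.02 reads plus 0.2%. Promoter sequences came from RefSeq on GRCh38.p14. Figures were drawn with matplotlib 3.10.9 in Python 3.11.15. The alternatives were other pseudocounts (0.1 and 5), no filter or one at a mean of 5 TPM, scaling by median ratios, quantile normalization, no trend, a block for the replicate number, and each library left out in turn.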

Additional observations from a re-analysis of the deposited data

How the results depend on the processing

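The count of genes past the threshold in the whole table was 1970, and 739 with the replicate block. It ranged from 764 to 3804 when 1 library was left out. Of the members, 6 to 16 rose when 1 library was left out, and 8 with the replicate block, which lost FZD2, FZD4 and FZD7. No member fell under any alternative other than leaving out siCtrl 1, where 1, FZD6, fell, so that count ranged from 0 to 1 over the left-out libraries. The same-numbered libraries did not deviate together (correlations of -0.43, -0.54 and -0.04 for numbers 1, 2 and 3). Deviations from the mean of only 3 libraries are tied to each other, so these correlations cannot settle whether the number is a pairing. Of the further pathway genes 8 rose and none fell with the block, where 20 rose and 4 fell without it. All 11 rises were kept with other pseudocounts, no filter, no trend and either scaling, and 8 of the 11 had a mean high enough for testing at 5 TPM and all 8 rose there. Their sizes moved with the pseudocount. With 0.1 and 5 the log2 change was 1.37 and 0.43 for NKD1, and 1.09 and 0.27 for RNF43. The log2 change of WNT5A turned to -0.032 with median-ratio scaling and -0.043 with quantile normalization, and ranged from -0.047 to 0.12 over the left-out libraries. That of LEF1 turned to -0.039 and -0.040 and ranged from -0.023 to 0.058, and that of RYK ranged from -0.060 to 0.25. The cause of these shifts was not tested. A member at a few reads, such as DKK1 or WNT4, could show only large differences at this depth.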
